A study of Mus musculus with 10 samples.

Results

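Cdkn1a, the gene of the cyclin-dependent kinase inhibitor p21, was examined together with Trp53, which encodes p53, and 8 well-known direct p53 targets (Mdm2, Ccng1, Trp53inp1, Bax, Phlda3, Gdf15, Zmat3 and Eda2r), to see whether Cdkn1a moved alone in fetal liver that lacked Mir483. These 10 genes were picked by symbol out of the 55401 genes in the count table, with the genotype difference of Cdkn1a already known, so the genotype values of the 10 are given as descriptions without a test. Of the 10 genes, 9 were among the 14098 genes with enough reads to be tested, and Eda2r was not. p53 is a transcription factor that is kept scarce by the ubiquitin ligase Mdm2 and accumulates after DNA damage or other stress. It then switches on genes for cell cycle arrest, DNA repair and apoptosis, and also Mdm2 itself, which closes a feedback loop. Cdkn1a is the best known arrest gene of this set: p21 binds cyclin-CDK complexes and PCNA, and it keeps the RB family proteins active, but Cdkn1a also answers to many other transcription factors.

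RNA-seq was done on whole livers of female fetuses at E18.5 (late gestation), all on a C57BL/6J background. Mir483Pat-KO fetuses (n = 5) had inherited from the father a constitutive deletion of Mir483, made with Cre in a targeted embryonic stem cell line, and WT littermates (n = 5) carried no deletion. Each library came from a separate fetus. Mir483 lies in an intron of the imprinted Igf2 gene and is expressed from the paternal allele. Total counts ranged from 10831350 to 14765880 per library. The Mir483 gene itself had 10 to 22 counts in the WT libraries and 0 in each of the 5 Mir483Pat-KO libraries, where a count of 0 allows up to 3 counts. These are polyadenylated host or precursor reads, not mature miRNA. The 10 hepatocyte markers checked, led by Alb, summed to between 194000 and 217000 CPM (counts scaled to library size by TMM) in WT libraries and between 174000 and 202000 in Mir483Pat-KO libraries. The numbers in the library names fell into a lower range (4 WT and 2 Mir483Pat-KO libraries) and an upper range (1 WT and 3 Mir483Pat-KO libraries), and the labels do not say what they stand for. With a single WT library in the upper range, a comparison within it was not possible, and values from the lower range alone are given below. In bulk tissue, fewer cells of a type and less RNA per cell cannot be told apart.

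The deletion removes both mature products of Mir483, which are printed here (RefSeq, GRCm38.p6, minus strand, chr7:142654932-142654952 for the 3p arm and chr7:142654968-142654989 for the 5p arm) because their seeds, bases 2 to 8, in capitals, were searched for in the p53 genes.
mmu-miR-483-3p: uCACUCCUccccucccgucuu
mmu-miR-483-5p: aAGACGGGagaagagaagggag
A match to the complement of either seed (AGGAGTG or CCCGTCT) was found in the longest annotated 3′ UTR of 0 of the 10 genes. These UTRs ranged from 150 bases (Gdf15) to 6692 bases (Zmat3), and that of Cdkn1a was 1334 bases long. Among 12875 tested genes with an annotated 3′ UTR, 12.6% held AGGAGTG and 3.28% held CCCGTCT. Of 51 other p53 targets with a 3′ UTR, 7 held the former (Ak1, Cdc42bpg, Ddit4, Ei24, Lpin1, Pank1 and Sesn2) and 3 the latter (Ak1, Lpin1 and Tigar). The absence of these letters from a 3′ UTR says nothing of sites elsewhere in a transcript.

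Promoter stretches around matches to the p53 decamer motif are shown next, to set Cdkn1a beside those of the 10 genes that also hold the motif. RefSeq promoter windows (GRCm38.p6), each from 250 bases before to 50 bases after a transcription start, were at hand for 8 of the 10 genes and not for Trp53inp1 and Zmat3. The motif, which reads the same on both strands, was found in 5 of these 8 genes and not in Phlda3, Gdf15 and Eda2r, against 9.55% of 27025 genes with such windows. Matches are in capitals in Cdkn1a (chr17:29090881-29090962, plus strand), Mdm2 (chr10:117710910-117710969, minus strand), Ccng1 (chr11:40755437-40755496, minus strand), Bax (chr7:45467065-45467124, minus strand) and Trp53 itself (chr11:69580259-69580318, plus strand).
Cdkn1a: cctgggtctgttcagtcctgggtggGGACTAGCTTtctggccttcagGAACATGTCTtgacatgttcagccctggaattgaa
Mdm2: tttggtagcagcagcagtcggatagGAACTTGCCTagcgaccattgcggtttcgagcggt
Ccng1: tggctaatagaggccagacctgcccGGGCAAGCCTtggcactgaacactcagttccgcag
Bax: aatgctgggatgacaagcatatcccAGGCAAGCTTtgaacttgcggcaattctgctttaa
Trp53: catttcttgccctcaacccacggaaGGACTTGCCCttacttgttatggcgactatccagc
Of these, Cdkn1a alone had 2 matches, 12 bases apart, in the window of its upstream start. The window of its other RefSeq start, 2790 bases downstream, held none. A match is a description of the letters and not evidence of p53 binding in these livers.

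Cdkn1a (ENSMUSG00000023067, chromosome 17, 29090976 to 29100727, plus strand) was the member with the largest genotype difference. In the WT livers it was at 44.1, 50.6, 46.1, 50.7 and 49.0 CPM, and in the Mir483Pat-KO livers at 33.1, 27.4, 28.1, 24.5 and 25.5 CPM. The highest Mir483Pat-KO library stayed below the lowest WT library, and the groups did not overlap. The mean was 48.1 ± 2.88 CPM in WT against 27.7 ± 3.34 CPM in the knockout (SD, n = 5 each), a log2 fold change of −0.80 (SE 0.0841), or 57.6% of the WT level. Within the lower number range the means were 47.9 CPM in 4 WT libraries and 30.2 CPM in 2 Mir483Pat-KO libraries (log2 fold change −0.67). Leaving out each library in turn gave log2 fold changes between −0.88 and −0.76. In the annotation, 7.68% of the exonic bases of Cdkn1a are also covered by AC167363.2 on the opposite strand, and the strand setting of the counting is not stated. Markers of several cell types lay mostly on the same side of 0 as Cdkn1a, where 50.9% of all genes tested were above 0. Of 10 hepatocyte markers 9 were below 0 and 3 passed as lower, where 2.76% of all genes did. Of 7 stellate cell markers 6 had a log2 fold change below 0 (median −0.40), 0 passed in edgeR (DESeq2 2, limma-voom 1) and 4 were lower at an unadjusted p under 0.05, as were 10.7% of all genes tested. Their summed level was 518 to 924 CPM in WT and 463 to 691 CPM in Mir483Pat-KO libraries. Of 7 endothelial markers 6 were below 0 (median −0.17) and 0 passed in edgeR, DESeq2 or limma-voom, with 2 lower at an unadjusted p under 0.05 and a mean summed level of 591 ± 31.0 CPM in WT and 535 ± 41.9 CPM in the knockout. Of 7 megakaryocyte markers 6 were below 0 (median −0.19) and of 5 bile duct markers 4 were (median −0.19), with 0 passing in edgeR, DESeq2 or limma-voom and 0 at an unadjusted p under 0.05 in either list. Of 10 macrophage markers 5 were below 0 and 2 passed as lower (Clec4f and C1qa, edgeR adjusted p = 0.0416 and 0.0390). Of 8 neutrophil markers 4 were below 0 and of 7 B-lymphoid markers 4 were, with 0 passing in edgeR in either list. In the lower number range alone, the medians were −0.0575 for hepatocyte, −0.24 for stellate, −0.0796 for endothelial and −0.02 for megakaryocyte markers. There they were −0.225 for bile duct, −0.0593 for macrophage, −0.125 for B-lymphoid and 0.0425 for neutrophil markers. The part of these cell types in the level of Cdkn1a was not tested.

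Trp53 (ENSMUSG00000059552, chromosome 11, 69580359 to 69591873) was also lower, by much less. Its WT values were 60.0, 64.6, 63.7, 61.1 and 62.7 CPM, and its Mir483Pat-KO values 55.7, 55.8, 58.8, 51.0 and 58.1 CPM. These groups did not overlap either, but they lay close together, with the highest Mir483Pat-KO library just below the lowest WT library. The log2 fold change was −0.16 (SE 0.0622), from 62.4 ± 1.87 to 55.9 ± 3.04 CPM, and −0.087 once GC content and transcript length were modelled. Trp53 and Cdkn1a were the 2 of the 9 tested genes whose groups were apart and lower, where 3.26% of all genes tested were. Cdkn1a was the 1 gene of the 9 past the test's threshold in the lower direction, where 2.76% of all genes tested were, whereas 5.19% passed in either direction, 1.23% also exceeded 1.5-fold as Cdkn1a did, and 6.6% had groups apart in either direction. Nothing is read from these counts because that difference chose the genes. mRNA levels do not report p53 protein, which is controlled mainly by its breakdown.

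The feedback genes Mdm2 and Ccng1 had log2 fold changes above 0, on the other side of 0 from Cdkn1a. Mdm2 (ENSMUSG00000020184, chromosome 10, 117688875 to 117710758), the ubiquitin ligase that marks p53 for breakdown, was at 43.0, 38.9, 40.2, 40.7 and 38.8 CPM in WT and at 42.5, 45.9, 45.2, 42.3 and 42.3 CPM in Mir483Pat-KO libraries. WT replicate 1 lay among the Mir483Pat-KO libraries and the 4 other WT libraries lay below all of them. Its log2 fold change was 0.11 (SE 0.0635), with little spread in either group. Ccng1 (ENSMUSG00000020326, chromosome 11, 40748552 to 40755311), which encodes cyclin G1, a partner in the control of Mdm2, was at 30.4, 29.1, 33.0, 23.7 and 24.5 CPM in WT and at 31.4, 38.0, 31.5, 33.7 and 29.7 CPM in Mir483Pat-KO libraries. These groups overlapped, and the log2 fold change was 0.22 (SE 0.0997).

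The genes tied to apoptosis and stress signalling overlapped between the groups in each case. Bax (ENSMUSG00000003873, chromosome 7, 45461697 to 45466898), which permeabilises the outer mitochondrial membrane, ranged from 11.9 to 13.0 CPM (median 12.4) in WT and from 12.6 to 15.4 CPM in Mir483Pat-KO libraries. Its log2 fold change was 0.13 (SE 0.0893) and became 0.27 once GC content and length were modelled. In the annotation, 12.18% of its exonic bases are shared with Gm45808 on the same strand. Trp53inp1 (ENSMUSG00000028211, chromosome 4, 11156431 to 11174379), a stress-induced cofactor of p53, was at 42.1, 62.7, 59.4, 38.8 and 30.9 CPM in WT and at 52.3, 47.8, 73.0, 44.6 and 31.0 CPM in Mir483Pat-KO libraries. It varied more among fetuses of the same genotype than between genotypes, with coefficients of variation of 29.3% and 30.6% and a log2 fold change of 0.087 (SE 0.201).

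The remaining targets were expressed at low levels, and their values carry more counting error. Phlda3 (ENSMUSG00000041801, chromosome 1, 135766119 to 135769136), an inhibitor of Akt, had 13 to 40 counts per library and means of 2.06 ± 0.685 and 2.16 ± 0.322 CPM in WT and Mir483Pat-KO livers (log2 fold change 0.060, SE 0.235). Gdf15 (ENSMUSG00000038508, chromosome 8, 70629393 to 70632456), a secreted stress cytokine, had 9 to 34 counts and means of 1.28 ± 0.564 and 1.85 ± 0.559 CPM (log2 fold change 0.52, SE 0.306). The 3 highest Mir483Pat-KO values of Gdf15 were in the upper number range, and in the lower range alone the log2 fold change was 0.045. Zmat3 (ENSMUSG00000027663, chromosome 3, 32334792 to 32366014), an RNA-binding zinc finger protein, had 50 to 108 counts and means of 6.45 ± 1.61 and 5.44 ± 1.13 CPM (log2 fold change −0.24, SE 0.185). In the lower range alone the log2 fold change of Zmat3 was −0.0088. Eda2r (ENSMUSG00000034457, chromosome X, 97333840 to 97377216), a receptor for ectodysplasin A2, had 2 to 11 counts per library, from 0.141 to 0.644 CPM in WT and from 0.132 to 0.873 CPM in Mir483Pat-KO libraries, too few to compare. Across the 8 tested genes other than Cdkn1a, the level in Mir483Pat-KO livers was between 0.845 and 1.43 times that in WT livers, whereas that of Cdkn1a was 0.576 times the WT level.

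**Figure D1:**
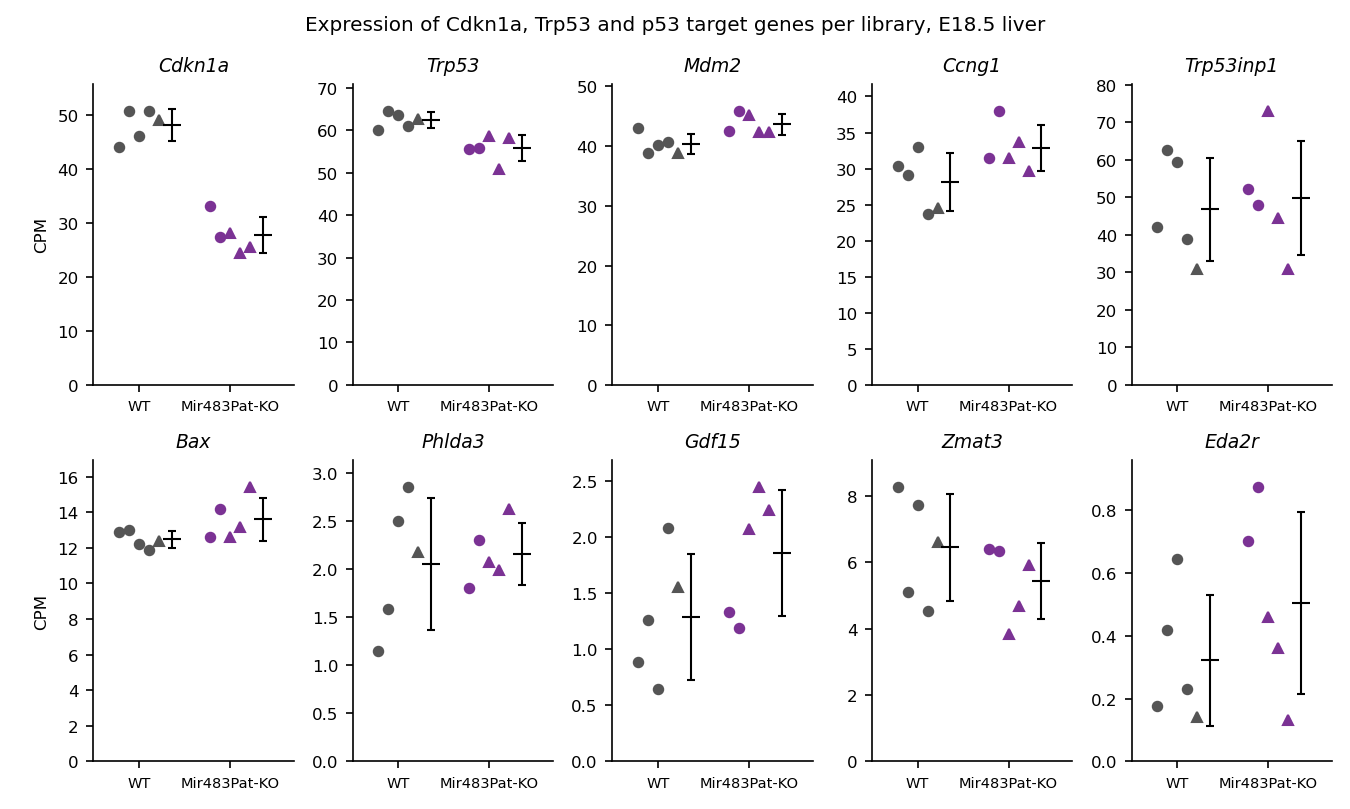
CPM (linear axes from 0) of Cdkn1a, Trp53 and 8 p53 targets in each WT (grey) and Mir483Pat-KO (purple) library, with circles for the lower and triangles for the upper range of library numbers, and the mean and SD (n = 5) as black bars to the right of the points. Cdkn1a formed separate groups, at 44.1 to 50.7 CPM in WT and 24.5 to 33.1 CPM in Mir483Pat-KO livers, and Trp53 was at 60.0 to 64.6 and 51.0 to 58.8 CPM, while the groups of the 8 other genes overlapped.

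On the scale of CPM per kilobase of exon, which allows levels of different genes to be set side by side, Trp53 was the highest of the 10 genes in WT livers at 15.4, followed by Cdkn1a at 13.5. Neighbours in this order whose WT ranges were apart were Trp53 and Cdkn1a, Cdkn1a and Ccng1 (8.01), Trp53inp1 (7.22) and Phlda3 (1.32), and Zmat3 (0.564) and Eda2r (0.0548). Between neighbours, Ccng1 and Mdm2 (7.93), Mdm2 and Bax (7.92), and Bax and Trp53inp1 did not differ beyond their spread, nor did Phlda3 and Gdf15 (0.694), or Gdf15 and Zmat3. In Mir483Pat-KO livers Trp53 stayed highest at 13.8, and Cdkn1a dropped to the fifth place at 7.80, where its range overlapped those of Mdm2 (8.59) and Trp53inp1 (7.68).

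Ratios within a library, which do not depend on how libraries were scaled, described the same change. The Cdkn1a to Mdm2 ratio of CPM values was 1.03, 1.30, 1.15, 1.25 and 1.26 in the WT libraries and 0.779, 0.597, 0.622, 0.579 and 0.603 in the Mir483Pat-KO libraries. The groups did not overlap in this ratio. CPM is not scaled for exon length, so the ratio does not rank the level of Cdkn1a against that of Mdm2. The Cdkn1a to Trp53 ratio averaged 0.771 ± 0.0426 in WT and 0.496 ± 0.0581 in Mir483Pat-KO livers, and these groups did not overlap. The Cdkn1a to Bax ratio averaged 3.86 ± 0.305 and 2.06 ± 0.378 (SD, n = 5 each), again without overlap.

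Variation among fetuses of the same genotype was not used to choose the genes, and it was compared between Cdkn1a and each other gene as deviations from the group mean of log2 CPM over the 10 libraries. For Trp53, Pearson's r was 0.35 (exact permutation within groups, p = 0.435) and Spearman's rho 0.236 (p = 0.561). For Mdm2, r was −0.196 (exact permutation p = 0.621) and rho −0.115 (p = 0.759). For Bax, r was −0.485 (exact permutation p = 0.302) and rho −0.467 (p = 0.246). None of the 9 relations computed passed after Benjamini-Hochberg adjustment, with adjusted permutation p between 0.858 and 0.931 for r and between 0.693 and 1.0 for rho. Without the 2 libraries farthest from the median of Cdkn1a, the 3 values of r became 0.166, −0.279 and −0.533. Leaving out single libraries also moved these values. For Trp53, r was −0.109 and 0.584 when Mir483Pat-KO replicates 4 and 1 were dropped, respectively. For Mdm2, it was −0.417 without Mir483Pat-KO replicate 4, and 0.0402 when WT replicate 1 was dropped. For Bax, it was −0.675 and −0.239 without Mir483Pat-KO replicates 4 and 1. Without the same 2 farthest libraries, r of Zmat3 went from −0.144 to −0.808, and it was −0.932 among the 5 WT and 0.318 among the 5 Mir483Pat-KO libraries.

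**Figure D2:**
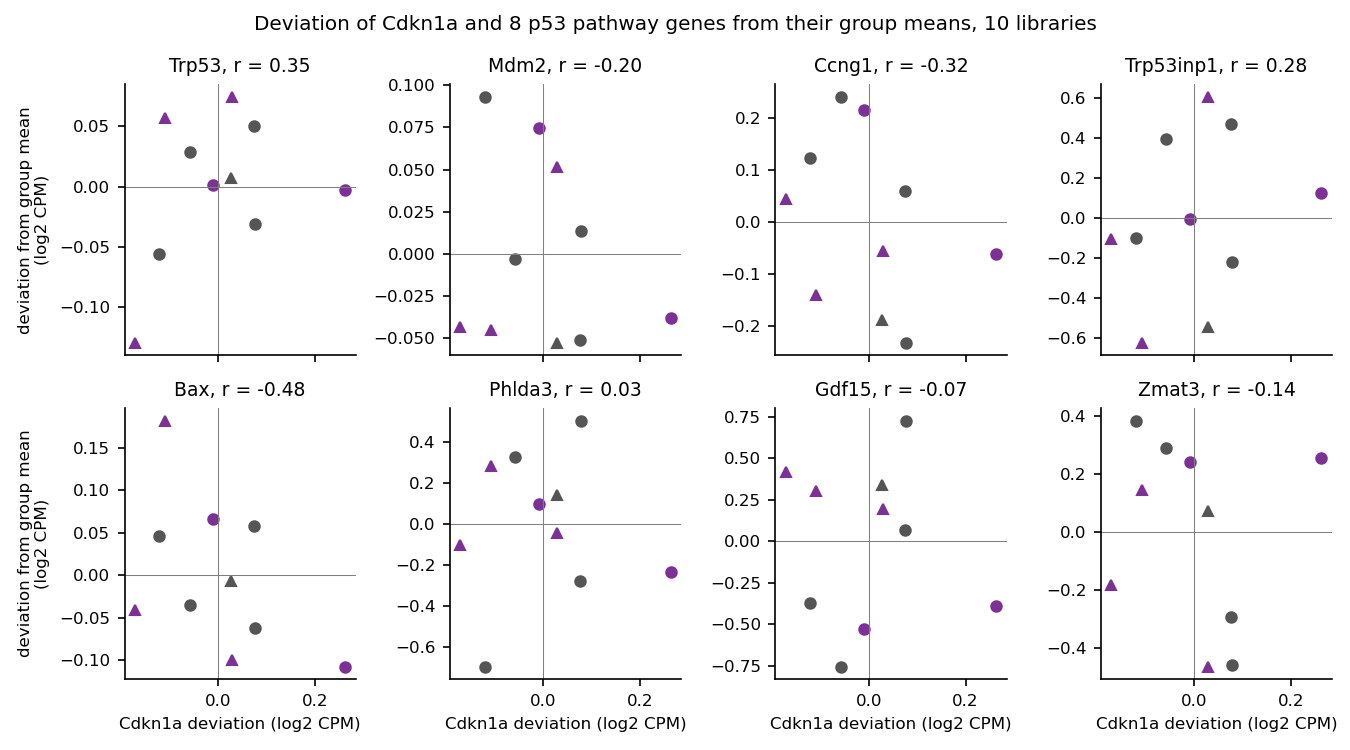
Deviation of Cdkn1a from its group mean (x axis, log2 CPM) against that of 8 p53 pathway genes (y axes, log2 CPM, scaled per gene), with 1 point per library, WT in grey and Mir483Pat-KO in purple, and circles and triangles for the lower and upper range of library numbers. Pearson's r over the 10 libraries is given above each panel, from −0.48 for Bax to 0.35 for Trp53, and no panel shows a tight line.

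Other p53 targets were found on both sides of 0. Of 56 other direct p53 targets listed by role, 54 were tested, of which 3 rose and 2 fell at an adjusted p under 0.05 (edgeR), where 2.43% of all genes tested rose and 2.76% fell. Of the 54, 26 had a log2 fold change above 0 and 28 below, with a median of −0.0088 against 0.0042 over all genes tested. In the lower number range alone, where 3 genes of 14494 tested rose and 20 fell, 0 of the 54 passed in edgeR, and 3 were higher and 8 lower at an unadjusted p under 0.05, where 6.34% and 7.24% of all genes were. There 20 of the 54 were above 0, where 48.6% of all genes were, and the median was −0.11. The count of 3 was 0 without any 1 of WT replicates 3 and 5 and Mir483Pat-KO replicates 4 and 5 and 1 without WT replicate 4 or Mir483Pat-KO replicate 2, and the count of 2 was 0 without any 1 of WT replicates 4 and 5 and Mir483Pat-KO replicates 2 and 4.

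Among 12 tested arrest genes, Btg2 rose and Pml fell. Btg2, an antiproliferative cofactor of mRNA deadenylation, was at 105, 83.2, 86.1, 103 and 79.6 CPM in WT and at 101, 116, 114, 131 and 111 CPM in Mir483Pat-KO libraries. The groups overlapped, and the log2 fold change was 0.33 (SE 0.0898, edgeR adjusted p = 0.0458). Pml, the organiser of nuclear bodies and also an interferon-inducible gene, was at 83.2, 76.3, 86.6, 96.0 and 93.0 CPM in WT and at 76.1, 54.6, 73.2, 65.9 and 68.2 CPM in Mir483Pat-KO libraries, with the groups barely apart (log2 fold change −0.36, SE 0.0891, edgeR adjusted p = 0.0280). Sesn2, a stress-induced regulator of mTOR signalling, went from 18.0 to 14.9 CPM without passing (log2 fold change −0.27, SE 0.125, edgeR adjusted p = 0.226). The Btg2 call was kept without WT replicates 1 or 4 or Mir483Pat-KO replicate 1 and lost without any other library (adjusted p 0.0682 to 0.134) and with the number range as a covariate (adjusted p = 0.0517), and the Pml call was lost without WT replicates 4 or 5 or Mir483Pat-KO replicates 2 or 4 (adjusted p 0.0588 to 0.0730).

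Among 12 apoptosis genes, 0 passed by edgeR, DESeq2 or limma-voom, and 1 was higher and 1 lower at an unadjusted p under 0.05, where 11.5% and 10.7% of all genes tested were. Pmaip1, which encodes the BH3-only protein Noxa, was at 1.60, 1.51, 1.79, 1.85 and 1.90 CPM in WT and at 2.34, 3.17, 3.45, 1.35 and 3.09 CPM in Mir483Pat-KO libraries. In 4 of 5 Mir483Pat-KO libraries it was above every WT library, in the direction opposite to Cdkn1a, but the difference did not pass (log2 fold change 0.64, SE 0.233, edgeR adjusted p = 0.119). Bbc3, which encodes the BH3-only protein Puma, went from 3.62 ± 0.959 to 4.01 ± 0.844 CPM (edgeR adjusted p = 0.714), and the sign of its difference turned in the lower range alone (log2 fold change −0.31). The death receptor gene Fas went from 12.5 ± 0.715 to 13.3 ± 0.923 CPM (edgeR adjusted p = 0.585), and Dram1, a lysosomal regulator of autophagy, from 17.9 ± 2.41 to 14.5 ± 1.95 CPM (log2 fold change −0.30, edgeR adjusted p = 0.125). The feedback list beside Mdm2 and Ccng1 held 3 tested genes, of which 0 passed by edgeR, DESeq2 or limma-voom and 1 was higher at an unadjusted p under 0.05, where 11.5% of all genes tested were. The ubiquitin ligase gene Cop1 went from 29.3 ± 3.25 to 34.3 ± 2.32 CPM (log2 fold change 0.23, edgeR adjusted p = 0.132), and the phosphatase gene Ppm1d from 20.9 ± 1.36 to 22.9 ± 0.550 CPM (log2 fold change 0.13, edgeR adjusted p = 0.339).

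Of 6 DNA repair genes, Rev3l rose. It encodes the catalytic subunit of the translesion polymerase zeta and went from 34.4 ± 3.35 to 42.2 ± 2.34 CPM with groups apart (log2 fold change 0.30, SE 0.0780, edgeR adjusted p = 0.0388). Of 21 genes of metabolism and other roles, Ckap2 rose and Dcxr fell. Ckap2, a protein of spindle microtubules, went from 21.4 ± 1.12 to 26.6 ± 2.20 CPM (log2 fold change 0.31, SE 0.0798, edgeR adjusted p = 0.0341). Dcxr, a reductase of dicarbonyls and xylulose, was at 19.8, 16.1, 17.2, 17.9 and 21.4 CPM in WT and at 13.0, 13.6, 15.3, 14.3 and 14.8 CPM in Mir483Pat-KO libraries (log2 fold change −0.38, SE 0.0947, edgeR adjusted p = 0.0312). In this list 17 of 21 genes had a log2 fold change below 0, with a median of −0.18, and 9 were lower and 2 higher at an unadjusted p under 0.05, as were 10.7% and 11.5% of all genes tested. The 10 hepatocyte markers leaned the same way, with 9 of 10 below 0, a median of −0.17 and 3 passing as lower (Apoa1, Cps1 and Asgr1), and their part in the metabolic list was not tested. The 3 calls were each lost in 6 to 8 of the fits that left out 1 library: Rev3l was kept only without WT replicate 2 or Mir483Pat-KO replicate 3 (adjusted p otherwise 0.0604 to 0.110), Ckap2 only without WT replicates 1 or 2 or Mir483Pat-KO replicates 2 or 3 (otherwise 0.0525 to 0.104), and Dcxr only without WT replicates 2 or 3 or Mir483Pat-KO replicates 3 or 5 (otherwise 0.0529 to 0.0773). With GC content and length modelled, Pml, Rev3l, Ckap2 and Dcxr no longer passed (adjusted p 0.0627, 0.151, 0.152 and 0.0705).

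Genes listed as p53 regulators were tested next, 16 in all, and 0 passed by edgeR. Among them were kinases, ligases and cofactors that act on p53, and also Rpl5, Rpl11 and Npm1. DESeq2 passed 1 as higher and limma-voom 0, and 7 were higher and 0 lower at an unadjusted p under 0.05, where 11.5% and 10.7% of all genes tested were. Of the 16, 14 had a log2 fold change above 0, where 50.9% of all genes tested did, and the median was 0.17. Atr, the kinase that senses replication stress, went from 28.8 ± 2.64 to 34.6 ± 2.22 CPM (log2 fold change 0.27, SE 0.0806, edgeR adjusted p = 0.0649, DESeq2 adjusted p = 0.0348). It passed in edgeR without WT replicate 2 (adjusted p = 0.0409). Chek2, a kinase that phosphorylates p53 after DNA breaks, went from 21.4 ± 2.06 to 26.0 ± 3.75 CPM (log2 fold change 0.27, SE 0.103, edgeR adjusted p = 0.129). Cdkn2a, whose product p19Arf restrains Mdm2, had reads in only 1 of the 10 libraries.

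**Figure D3:**
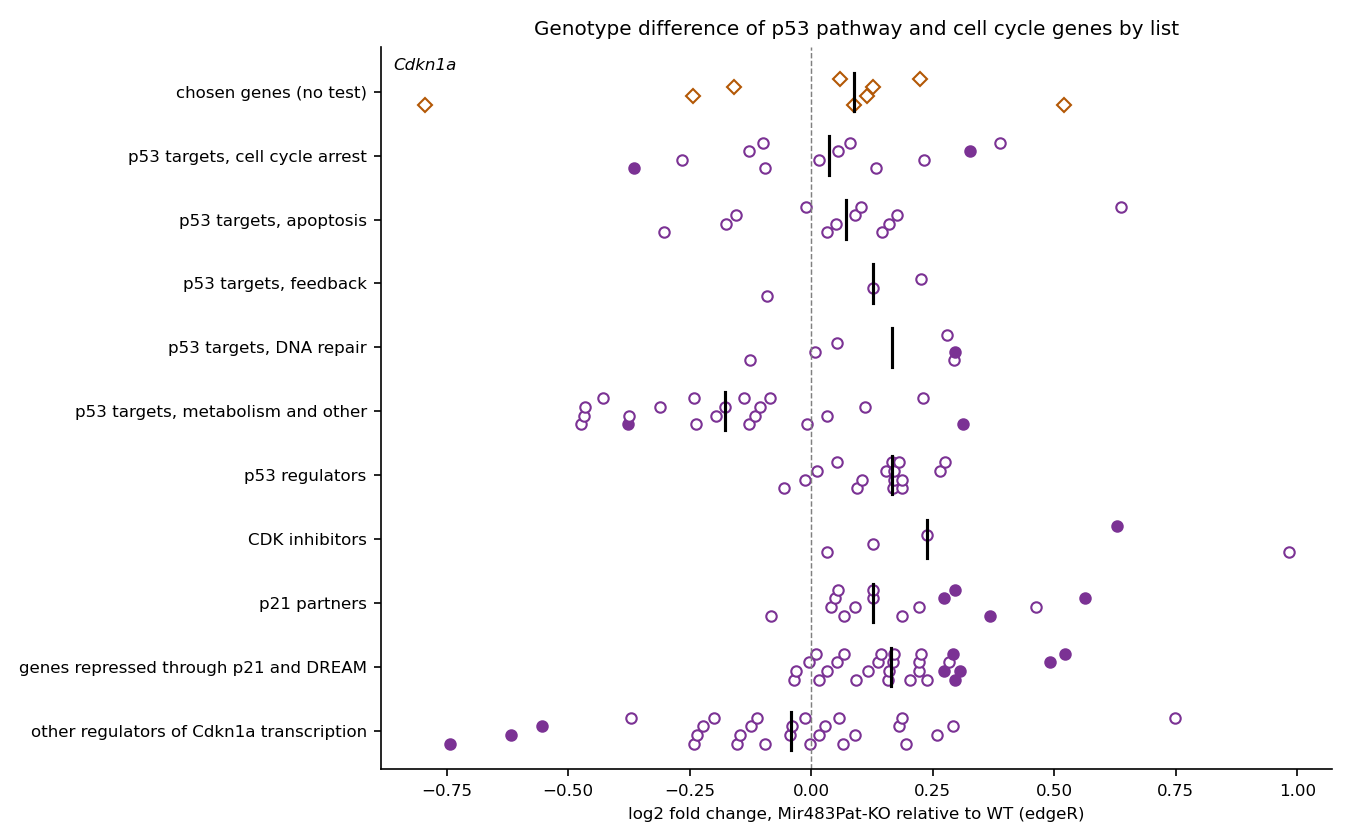
log2 fold change (x axis, Mir483Pat-KO relative to WT, edgeR) of every tested gene in each list, with filled circles for genes at an adjusted p under 0.05, open circles for the others, orange diamonds for Cdkn1a, Trp53 and the 7 other tested genes chosen with it, which were not tested here, and a black bar at each list's median. Cdkn1a lies at −0.80, left of all others shown, while list medians lie between −0.18 (p53 targets of metabolism and other roles) and 0.24 (CDK inhibitors).

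Of 5 other tested genes listed as CDK inhibitors by name, Cdkn3 among them, 1 rose, where 2.43% of all genes tested did. Over all libraries the 5 had log2 fold changes above 0, as did 50.9% of all genes, with a median of 0.24, the value of Cdkn3. In the lower number range alone 3 of the 5 were above 0, with a median of 0.057. Cdkn1b, which encodes p27, was at 45.1, 53.6, 52.1, 45.4 and 36.9 CPM in WT and at 58.3, 72.7, 91.2, 74.1 and 64.2 CPM in Mir483Pat-KO libraries, with the groups apart. It rose from 46.6 ± 6.64 to 72.1 ± 12.5 CPM (log2 fold change 0.63, SE 0.116, edgeR adjusted p = 0.00733), and the call held whichever single library was left out. Cdkn1c, which encodes p57 and is an imprinted gene on chromosome 7 (143458339 to 143461050), was singled out after its values were seen. It was at 133, 11.1, 190, 190 and 214 CPM in WT and at 218, 276, 283, 328 and 357 CPM in Mir483Pat-KO libraries. WT replicate 2 stood far below every other library, yet the groups did not overlap with or without it. The difference did not pass over all libraries (log2 fold change 0.98, SE 0.423, edgeR adjusted p = 0.183) and passed without WT replicate 2 (log2 fold change 0.68, SE 0.139, edgeR adjusted p = 0.0118). In the annotation, 30.65% of the exonic bases of Cdkn1c are covered by Gm44732 on the opposite strand. Cdkn2a and Cdkn2b had too few reads to be tested.

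Of 15 tested cyclins, CDKs, pocket proteins and other partners of p21, 4 rose and 0 fell. Rb1, the retinoblastoma protein that p21 keeps active, was at 52.2, 57.8, 57.1, 48.1 and 32.9 CPM in WT and at 75.0, 73.7, 81.3, 68.2 and 68.3 CPM in Mir483Pat-KO libraries (log2 fold change 0.56, SE 0.119, edgeR adjusted p = 0.0138). The groups were apart, and 14.90% of its exonic bases are covered by Lpar6 and Rcbtb2 on the opposite strand. Its relative Rbl1 rose from 35.2 ± 3.57 to 45.4 ± 2.59 CPM (log2 fold change 0.37, edgeR adjusted p = 0.0150), and narrowly missed the threshold without Mir483Pat-KO replicate 4 (adjusted p = 0.0524) and with GC content and length modelled (adjusted p = 0.0514). The mitotic cyclin genes Ccnb1 (log2 fold change 0.27, edgeR adjusted p = 0.0287) and Ccna2 (log2 fold change 0.29, edgeR adjusted p = 0.0416) also rose, and both are also in the next list. Together, CDK inhibitors and p21 partners gave 5 higher and 0 lower of 20 tested, where 2.43% of all genes tested were higher. This count was 2 without Mir483Pat-KO replicate 4, 3 without any 1 of WT replicates 4 and 5 and Mir483Pat-KO replicates 2 and 5, and in the lower range alone it was 0 in edgeR, with 6 higher and 0 lower at an unadjusted p under 0.05, where 6.34% and 7.24% of all genes in that range were.

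Genes that p21 represses through the DREAM complex, which binds cell cycle promoters together with RB family proteins, were examined as the known output of p21. Of 28 tested, 6 rose and 0 fell, where 2.43% of all genes tested rose. At an unadjusted p under 0.05, 15 were higher and 0 lower, where 11.5% of all genes were higher, and 25 had a log2 fold change above 0, where 50.9% of all genes did, with a median of 0.17. A rise of proliferation genes was already known from these libraries, so the list is not independent support for anything said of Cdkn1a. Bub1, a kinase of the spindle checkpoint, was at 33.9, 29.2, 31.5, 32.7 and 26.6 CPM in WT and at 41.5, 42.4, 43.0, 45.8 and 43.6 CPM in Mir483Pat-KO libraries, with the groups apart (log2 fold change 0.49, SE 0.0756, edgeR adjusted p = 0.00306). Cdc25c, the phosphatase that activates CDK1, rose from 12.6 ± 1.36 to 18.1 ± 2.34 CPM (log2 fold change 0.52, SE 0.107, edgeR adjusted p = 0.0122), and Prc1, which bundles microtubules at cytokinesis, from 110 ± 6.06 to 135 ± 7.33 CPM (log2 fold change 0.29, SE 0.0648, edgeR adjusted p = 0.0183). The summed level of the 28 genes was 3430 to 3980 CPM in WT and 4020 to 4430 CPM in Mir483Pat-KO libraries. The motif TTTGAA (the CHR element, searched on both strands) was in the promoter windows of 12 of 22 genes of this list with a window, against 20.2% of all genes with windows.

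Markers of erythroid cells, which divide in the fetal liver, were also higher in part. Of 9 erythroid markers 7 had a log2 fold change above 0, where 50.9% of all genes tested did, and 2 passed as higher, among them Hbb-bs, where 2.43% of all genes did, with a median of 0.29. Their summed level was 15800 to 20400 CPM in WT and 18400 to 26400 CPM in Mir483Pat-KO libraries, where the 2 libraries of the lower number range gave 18400 and 20100 CPM and the 3 of the upper range 24500 to 26400 CPM. The part of erythroid content in the cell cycle lists was not tested. In the lower range alone, the erythroid median was −0.0048, that of the 28 repressed genes was 0.091 with 19 above 0, 0 passing in edgeR, and 6 higher and 1 lower at an unadjusted p under 0.05 (over all genes in that range, 48.6% were above 0, 6.34% higher and 7.24% lower), and the log2 fold change of Cdkn1a was −0.67. The count of 6 was 2 without Mir483Pat-KO replicate 4, and 3 without any 1 of WT replicates 3 and 5 and Mir483Pat-KO replicate 5. Ccna2 kept its call only without WT replicates 1 or 2 (adjusted p otherwise 0.0586 to 0.10), Ccnb1 only without WT replicates 1 or 2 or Mir483Pat-KO replicates 1 or 3 (otherwise 0.0562 to 0.0802), and Prc1 lost it without Mir483Pat-KO replicate 4 (adjusted p = 0.0596) and with GC content and length modelled (log2 fold change 0.21, adjusted p = 0.0956). Over all genes tested, the log2 fold change had a Spearman correlation of −0.439 with GC content, given as a description.

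**Figure D4:**
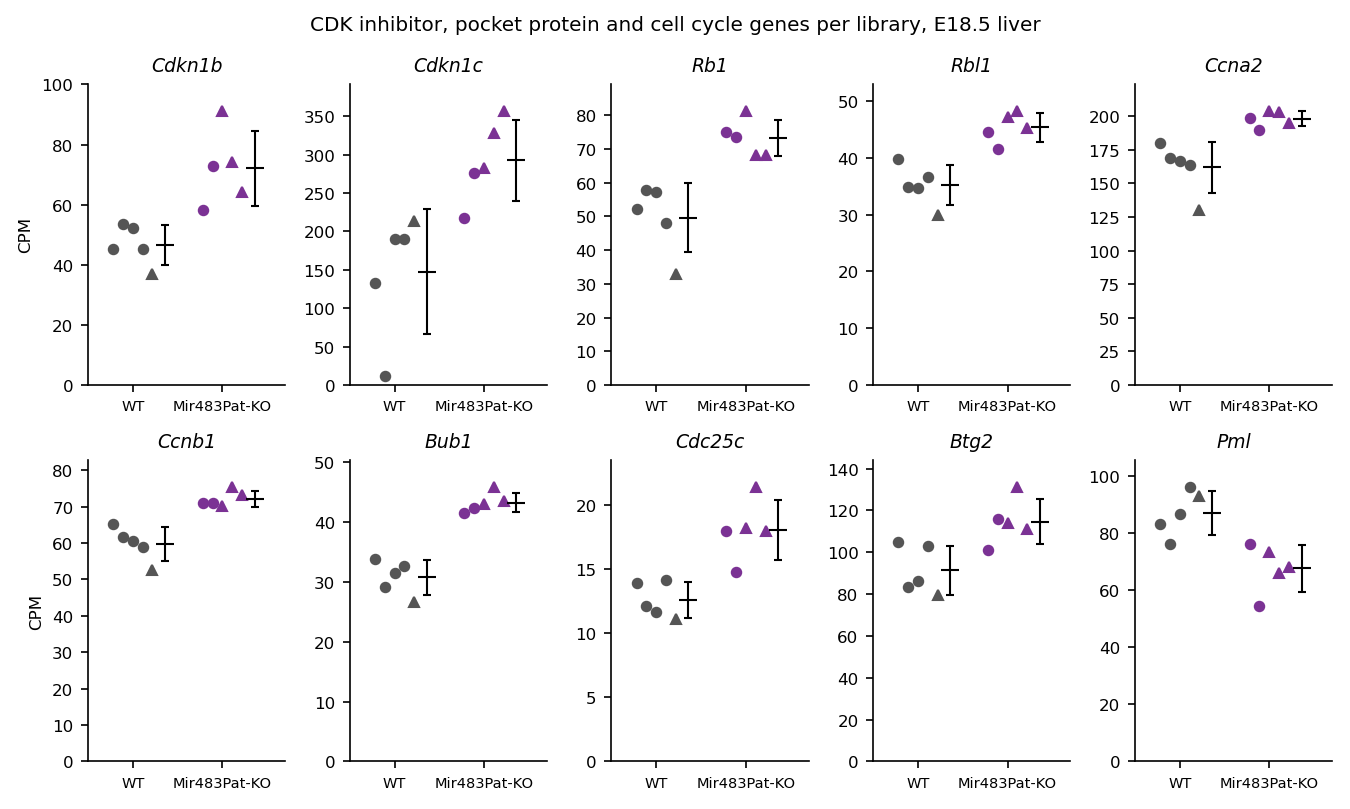
CPM (linear axes from 0) of CDK inhibitors, RB family genes, cell cycle genes and the p53 targets Btg2 and Pml in each WT (grey) and Mir483Pat-KO (purple) library, with circles and triangles for the lower and upper range of library numbers and black bars for the mean and SD (n = 5). Cdkn1b, Rb1, Rbl1, Ccna2, Ccnb1, Bub1 and Cdc25c were higher in every Mir483Pat-KO library than in any WT library, Pml was lower, Btg2 overlapped, and Cdkn1c was at 11.1 CPM in WT replicate 2.

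Transcription factors other than p53 that act on Cdkn1a were examined last. Of 28 tested, 3 fell and 0 rose, where 2.76% of all genes tested fell and 2.43% rose. At an unadjusted p under 0.05, 7 were lower and 4 higher, where 10.7% and 11.5% of all genes were, and the median log2 fold change was −0.041. DESeq2 gave 5 lower and 0 higher, and limma-voom 4 lower and 0 higher. Tbx3, a T-box repressor of hepatoblasts, was at 6.30, 5.86, 5.51, 6.01 and 9.65 CPM in WT and at 5.23, 3.49, 3.98, 2.89 and 4.28 CPM in Mir483Pat-KO libraries (log2 fold change −0.74, SE 0.186, edgeR adjusted p = 0.0310). Tbx3 no longer passed without WT replicate 5, its highest library (log2 fold change −0.56, adjusted p = 0.0814), nor without Mir483Pat-KO replicates 2, 3 or 4 (adjusted p 0.0704, 0.0621 and 0.0854). The count of 3 was 5 without Mir483Pat-KO replicate 1, and in the lower range alone it was 0 in edgeR, with 4 lower and 0 higher at an unadjusted p under 0.05, where 7.24% and 6.34% of all genes in that range were.

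Among 11325 genes at a mean log2 CPM of at least 2, the 5 whose within-group deviations were most like those of Cdkn1a over the 10 libraries were Nedd9 (r = 0.907), Yipf1 (r = 0.891), Aplp2 (r = 0.887), Naip2 (r = 0.878) and Pi4ka (r = 0.876). As the highest of so many, these values are a description. None of the 5 passed the genotype test in edgeR, with log2 fold changes of 0.092, −0.20, −0.17, 0.043 and −0.035 and adjusted p of 0.528, 0.260, 0.130, 0.847 and 0.798. DESeq2 passed Aplp2 as lower (adjusted p = 0.0468). Reads of Naip2 may be shared with its near-identical paralogs, so its value is uncertain. No p53 target of the 10 was among these 5.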

How the data were processed

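Polyadenylated RNA of 10 livers was made into TruSeq stranded libraries and sequenced as paired ends. The authors aligned reads to GRCm38 with STAR and deposited raw, unscaled counts for each Ensembl gene. How strand was set how multiply mapping reads were treated is not given in the sources used here. Groups and replicate numbers came from the sample titles. Of 55401 gene IDs, 55141 matched a symbol in GENCODE M21 (GRCm38), which also gave positions, exon lengths and 3′ UTRs. Totals of 10831350 to 14765880 counts set the precision of low genes, and the floor of 3 counts covers counting error only.

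The main test was that of edgeR 4.0.16 in R 4.3.3 (default filterByExpr, TMM, quasi-likelihood F-test, no covariates). Benjamini-Hochberg adjustment ran over 14098 genes. A gene passed at an adjusted p under 0.05, and was called when its fold change also exceeded 1.5. CPM used TMM-scaled library sizes, and log2 CPM a prior count of 2. Within-group relations were tested two-sided over all 14400 arrangements within groups. Alternatives were RLE scaling, DESeq2 1.42.0, limma-voom (limma 3.58.1), a robust fit, other filters, a replicate block, the library number range, GC content and length offsets (splines with 5 degrees of freedom), leaving out each library, and a prior count of 0.5. On simulated counts with 200 genes changed 2-fold, 89.5% of the 200 were recovered and 4.28% of the genes passing were false, over 13992 genes tested. RefSeq gave promoter and miRNA sequences. Figures used matplotlib 3.10.9 and permutations scipy 1.17.1.

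The 10 genes and all lists were chosen with earlier results of these data known. Named in the text are the 10 genes, Mir483, up to 5 passing genes of each list by smallest p or, where none passed, the 2 with the smallest p, the genes Bbc3, Pmaip1, Fas, Btg2 and Sesn2, and the 5 genes most like Cdkn1a. Marker genes and Cdkn1c were named beside these, and Cdkn1c was chosen after its values were seen. Genes that the rule or a list names but the text does not give are not reported here. Trp53rk and Ahsp matched no symbol and were left out of their lists.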

Additional observations from a re-analysis of the deposited data

Results flagged for a closer look

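Each gene reported by rule and held in a gene list was checked in both groups for a single library far from the 4 others. Mir483 and the 5 genes most like Cdkn1a were in no list and were not checked. Dixon's gap ratio was set against its critical value of 0.71, in 66 groups of 5 in all. At this level chance marks about 1 group in 20, and 1 group was marked. Tbx3 in WT replicate 5 was at 9.65 CPM, above the other WT libraries at 5.51 to 6.30 CPM, with a gap of 0.809 of the range, and the fall of Tbx3 no longer passed without this library. No library was marked for Cdkn1a, Trp53 or the 8 p53 targets examined with them.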

How the results depend on the processing

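The log2 fold change of Cdkn1a stayed between −0.88 and −0.67 under the 20 alternatives tried, and no within-group relation to Cdkn1a passed under any alternative tried for it. The numbers of passing genes moved far more, and the cause was not tested unless named. DESeq2 gave 551 higher and 609 lower genes over all tested (edgeR 342 and 389), 1 higher p53 regulator (edgeR 0) and 5 lower regulators of Cdkn1a (edgeR 3). Without a low-count filter, where more genes were tested, 633 were higher and 625 lower, 99 higher and 222 lower genes also exceeded 1.5-fold (50 and 123 with the filter), and 2 regulators of Cdkn1a were higher (0 with it). With the library number range as a covariate, 646 were higher, 107 of them over 1.5-fold. In the lower range alone, with 6 libraries, 3 were higher and 20 lower, 2 and 19 of them over 1.5-fold, and 0 genes passed among other p53 targets (higher or lower), CDK inhibitors and p21 partners, repressed genes and regulators of Cdkn1a. With GC content and length offsets, 31 genes were higher over 1.5-fold, 1 other p53 target was higher and 0 lower, and 1 regulator of Cdkn1a was higher. There the log2 fold change of Cop1 turned to −0.045, of Fas to −0.0038 and of Pi4ka to 0.0053. In the lower range alone, that of Bbc3 turned to −0.31, of Pi4ka to 0.055, of Trp53inp1 (0.087 over all libraries) to −0.024 and of Phlda3 (0.060) to −0.0029.

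Leaving out each library in turn gave 87 to 389 higher and 192 to 475 lower genes over all tested, 17 to 66 and 80 to 171 of them over 1.5-fold. It gave 0 to 2 higher and 0 to 3 lower other p53 targets, 0 to 1 higher p53 regulators, 2 to 6 higher CDK inhibitors and p21 partners, 2 to 8 higher repressed genes, and 0 to 1 higher and 2 to 5 lower regulators of Cdkn1a. The lowest counts over all genes were those without Mir483Pat-KO replicate 4. Naip2 ranged from −0.032 to 0.085 and changed sign without WT replicate 1 (−0.0039) or Mir483Pat-KO replicate 1. Among the 10 genes, Trp53inp1 ranged from −0.10 (without Mir483Pat-KO replicate 3) to 0.21 (without Mir483Pat-KO replicate 5) and Phlda3 from −0.087 (without WT replicate 1) to 0.19 (without WT replicate 4). Bax was lowest at 0.069 without Mir483Pat-KO replicate 5, Gdf15 at 0.33 without WT replicate 3, and Zmat3 was nearest 0 at −0.15 without Mir483Pat-KO replicate 3.

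Replicate numbers were shared by the groups, and the labels do not say whether they pair the libraries. Deviations of same-numbered libraries correlated at −0.0496 to 0.261 (mean 0.0871), and those of differently numbered libraries at a mean of −0.0217. With a replicate block, 742 genes were higher and 596 lower, 1 p53 regulator was higher (Chek2, adjusted p = 0.0416) and 1 regulator of Cdkn1a was higher, and the log2 fold change of Cdkn1a was −0.80.

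Depth limits Phlda3, Gdf15, Zmat3 and above all Eda2r, where a library holds few reads.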
